A study of Bos taurus with 252 samples.

Results

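The 10 genes described here form the core of the circadian clock: ARNTL, CLOCK, NPAS2, PER1, PER2, PER3, CRY1, CRY2, NR1D1 and NR1D2. They were chosen by name from the 33282 gene rows of the count table, where each had a row under its own symbol, and all 10 were among the 19056 genes tested after low counts were removed. They were followed in whole blood of 42 crossbred beef steers, 6 in each of 7 groups. Each steer gave 6 messenger RNA libraries, from blood drawn on day 0, then within the first weeks on days 3 and 7, days 14 and 21, and last on day 56. NC steers received no antibiotic. The steers of the other 6 groups received a single administration of an antibiotic after the day 0 sample. CEFT stands for ceftiofur, a cephalosporin, and ENRO for enrofloxacin, a fluoroquinolone. FLOR is florfenicol, a phenicol, and OXYT is oxytetracycline, a tetracycline. TILD and TULA are the macrolides tildipirosin and tulathromycin.

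All 7 groups, NC included, shared an earlier history: at the start of backgrounding every steer had received tildipirosin, a trenbolone acetate and estradiol implant, antiparasitics and vaccines, and no steer was treated for disease during the trial. Each group lived in its own pen, and after day 0 the groups were handled in a fixed order (NC, ENRO, FLOR, TULA, TILD, CEFT, OXYT), so treatment, pen and place in the order cannot be told apart. The pens also held steers that were not sequenced, among them untreated sentinel steers in the pens of the treated groups. The ages of the steers and the clock time of each blood sample are not given in the sources used here. All libraries of a steer were sequenced on the same lane, with NC and ENRO on lane 1, CEFT and OXYT on lane 3, TULA on lane 2, and FLOR and TILD split between lanes. Library totals ran from 26073640 to 74110289 counts. Markers of neutrophils (S100A8, CXCR1), T cells (CD3E), B cells (CD79A), monocytes (CD14) and platelets (PF4) had counts in every library. Hemoglobin transcripts, which come from red cell precursors, took 0.00393 to 25.4% of a library (median 0.898%).

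In mammalian cells the clock is a feedback loop of transcription. ARNTL (also called BMAL1) pairs with CLOCK, or with its close relative NPAS2, to switch on the PER and CRY genes through E-box elements. PER and CRY proteins then enter the nucleus and block that pair. A second loop runs through the nuclear receptors NR1D1 and NR1D2 (REV-ERB alpha and beta), which repress ARNTL and are themselves targets of the ARNTL pair. Blood leukocytes run this clock, and its phase is set in part by glucocorticoids, to which PER1 responds directly. With 1 blood sample per steer and day at an unstated hour, a phase cannot be measured here. What the data give is the level of each gene in each library and how the levels moved together.

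The 10 genes differed in how well they were counted. CRY2 had 957 to 4025 counts per library and PER3 had 317 to 5025. ARNTL (278 to 1516), PER1 (255 to 2668), NR1D2 (193 to 2043), CRY1 (163 to 963), CLOCK (161 to 1302) and NR1D1 (146 to 796) were counted well in every library. PER2 (25 to 249, median 83) and NPAS2 (8 to 659, median 52) had the fewest counts, so their single-library values carry the largest counting error. Levels are given below as CPM (counts scaled to the size of the library, with TMM factors), and they are compared only within a gene because transcript lengths were not used.

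The first question was how the clock genes moved over the 56 days in all steers. ARNTL, CLOCK, CRY1 and NR1D2 were lower on day 56 than on day 0, and NPAS2, PER1, PER2, PER3, CRY2 and NR1D1 were higher. All 10 passed the test over days (edgeR quasi-likelihood F test with steer as a block, Benjamini-Hochberg FDR 0.05), but so did 80.4% of all genes tested, so passing it does not set the clock genes apart. On day 56 alone 10 of 10 passed, 6 higher and 4 lower, against 65.4% of all genes (33.5% higher and 31.9% lower). Since these are bulk samples, fewer cells of a type and less RNA per cell cannot be told apart.

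**Figure D1:**
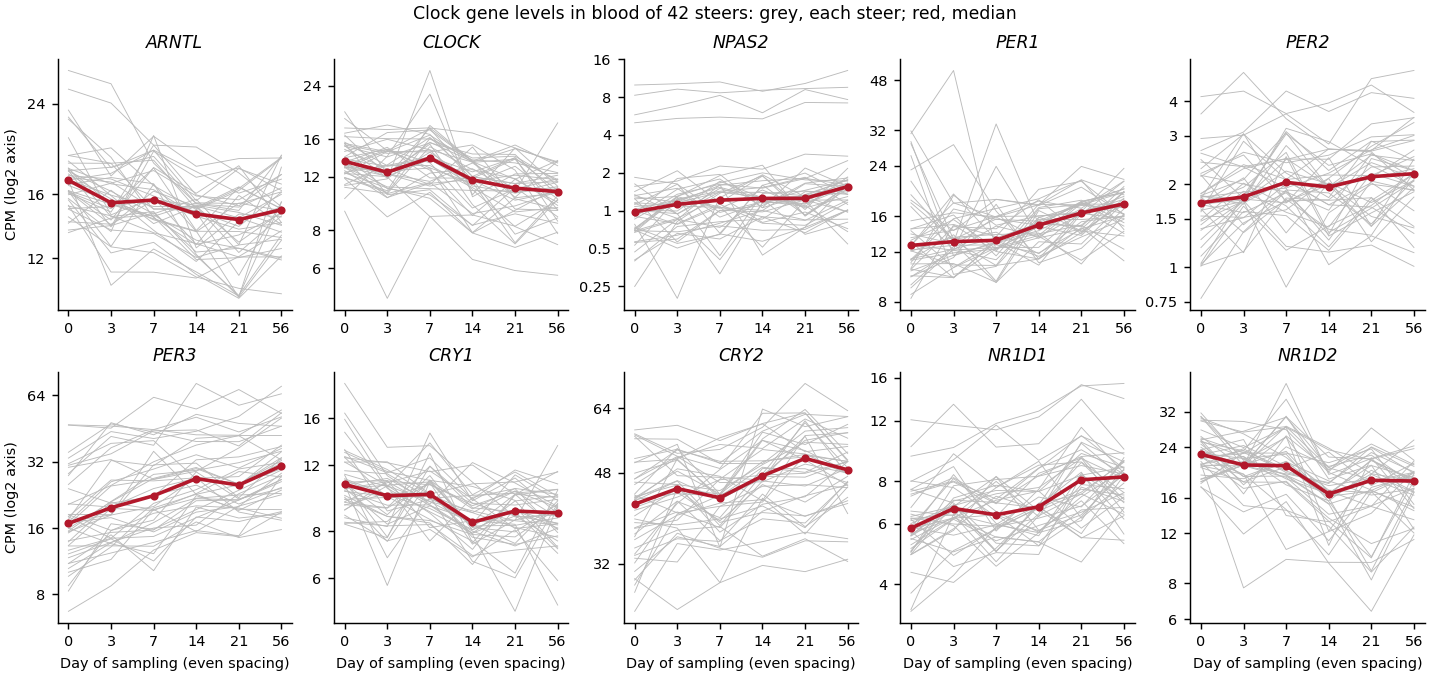
Level of each clock gene (CPM, log2 axis) by day of sampling, with the days evenly spaced; grey lines are the 42 steers and the red line is their median. The medians of ARNTL, CLOCK, CRY1 and NR1D2 end below day 0 and those of the other 6 genes end above it, while 4 steers keep NPAS2 far above the rest on all days.

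Among the activators, ARNTL had a median of 17.03 CPM on day 0 (range 13.5 to 27.9 over 42 steers) and 14.9 CPM on day 56 (10.2 to 19.1). It was lower than on day 0 in 37 of 42 steers, although the ranges overlapped. The log2 fold change on day 56 was -0.21 (SE 0.0303, edgeR FDR 1.62e-10), and the lowest value was reached on day 21 (-0.32). CLOCK, the histone acetyltransferase partner of ARNTL, went from a median of 13.5 CPM (9.25 to 19.7) to 10.7 CPM (5.68 to 18.1) and was lower in 38 of 42 steers on day 56 (log2 fold change -0.37, SE 0.0473, edgeR FDR 1.61e-12). On day 7 CLOCK stood at its day 0 level (0.03, edgeR FDR 0.693). NPAS2, which can take the place of CLOCK, moved the other way. Its median rose from 0.976 CPM (0.249 to 9.97) to 1.55 CPM (0.542 to 13.01), it was higher on day 56 in 37 of 42 steers, and its log2 fold change was 0.60 (SE 0.0860, edgeR FDR 2.40e-10).

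Of the repressors, PER3 changed most of the 10. Its median rose from 16.8 CPM on day 0 (6.71 to 47.04) to 30.7 on day 56 (15.8 to 70.4). The medians between them were 19.8, 22.4, 26.8 and 25.1 CPM for the samples of days 3, 7, 14 and 21. On day 56 PER3 was higher than on day 0 in 41 of 42 steers, with a log2 fold change of 0.85 (SE 0.0515, edgeR FDR 1.20e-35). PER2 rose from a median of 1.71 CPM (0.771 to 4.15) to 2.18 CPM (1.01 to 5.17) and was higher in 33 of 42 steers (log2 fold change 0.36, SE 0.0629, edgeR FDR 1.52e-07). PER1 had a different time course: its log2 fold changes on days 3, 7 and 14 were -0.02, -0.02 and 0.04, none past the threshold (edgeR FDR 0.816, 0.836 and 0.599), and it was higher only on days 21 (0.18, edgeR FDR 0.0157) and 56 (0.29, SE 0.0684, edgeR FDR 7.35e-05). The spread of PER1 between steers also narrowed, from 8.23 to 31.8 CPM on day 0 (SD 6.38) to 11.2 to 23.5 CPM on day 56 (SD 2.61). That change in spread is given as a description and was not tested.

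The cryptochromes separated. CRY1 fell from a median of 10.7 CPM (8.36 to 19.8) to 8.96 CPM (5.09 to 13.5), lower in 36 of 42 steers, with a log2 fold change of -0.31 on day 56 (SE 0.0434, edgeR FDR 6.73e-11). CRY2 rose from 41.7 CPM (25.8 to 58.1) to 48.6 CPM (32.3 to 63.4), higher in 37 of 42 steers, with a log2 fold change of 0.25 (SE 0.0295, edgeR FDR 2.97e-14). The REV-ERB genes separated as well. NR1D1 rose from 5.83 CPM (3.33 to 12.1) to 8.23 CPM (5.26 to 15.4), higher in 36 of 42 steers (log2 fold change 0.42, SE 0.0474, edgeR FDR 3.28e-15). NR1D2 fell from 22.7 CPM (17.4 to 31.7) to 18.3 CPM (11.4 to 25.5), lower in 38 of 42 steers (log2 fold change -0.40, SE 0.0531, edgeR FDR 6.43e-12), and it was lowest on day 14, with a median of 16.5 CPM and a log2 fold change of -0.51.

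The calls were not reached together. By day 3, 8 of the 10 clock genes differed from day 0, against 42.1% of all genes. The count was 6 on day 7 (46.8%) and 8 on day 14 (65%). From day 21 it was 10 (66.4%). Within each lane, where limma voom was used on 84 libraries, all 10 genes kept their direction on day 56. In lane 1, which holds NC and ENRO and 2 FLOR steers, PER1 (0.08, FDR 0.711) and CRY2 (0.14, FDR 0.0649) did not pass on that day. Of the 19056 genes tested, 7238 passed there. Without the 17 libraries with over 10% hemoglobin, 10 of 10 genes still passed on day 56, and so did 12278 of the 19056 genes tested.

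The wider clock pathway was read from a list of 20 further genes, of which 18 were tested and 15 passed the test over days, against 80.4% of all genes. On day 56, 6 were higher and 8 were lower, against 33.5% and 31.9% of all genes. The PAR-bZIP factors, direct outputs of the clock that bind D-box elements, were higher: DBP had a log2 fold change of 0.76 (edgeR FDR 1.82e-43), TEF 0.40 and HLF 0.13 (edgeR FDR 0.00991). NFIL3, which represses the same D-box elements, was lower (-0.63, edgeR FDR 1.69e-11). RORA, a receptor that competes with REV-ERB for its sites on DNA, was lower (-0.45, edgeR FDR 5.86e-07). The casein kinases that phosphorylate PER, CSNK1E (0.28) and CSNK1D (0.10), were higher. WEE1 (-0.35), a cell cycle kinase under E-box control, NAMPT (-0.75), which makes NAD, and TIMELESS (-0.29) were lower. HLF and RORA were picked after their values were seen.

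Other gene lists moved over the same days. Of all genes tested, 33.5% were higher and 31.9% lower past the threshold on day 56, and 65% had changed in either direction on day 14. Of 8 glucocorticoid-response genes, PER1 among them, 6 were lower on day 56, KLF9 (-1.08) and FKBP5 (-0.58) included, PER1 alone was higher, and CEBPD did not pass (-0.23, edgeR FDR 0.138). The summed level of the other 7 went from a median of 2123 CPM (1084 to 3874) to 1622 CPM (926 to 2553). Of 7 neutrophil markers 5 were lower on day 56, and their sum went from a median of 2622 CPM (1339 to 5187) to 1794 CPM (1024 to 4077). Of 6 monocyte markers 5 were lower, with a median sum of 567 CPM (273 to 1306) on day 0 and 349 CPM (184 to 657) on day 56. Of 8 T cell markers 6 were higher and 1 lower, the median sum going from 1790 CPM (1412 to 2594) to 2529 CPM (1802 to 3440), and of 6 B cell markers 4 were higher and 1 lower, from 1556 CPM (745 to 2312) to 1889 CPM (1218 to 2762). Both eosinophil markers were higher, from 37.3 CPM (11.8 to 104) to 79.7 CPM (33.1 to 223). Of 5 natural killer and cytotoxic markers 1 was higher and 3 lower, and of 5 platelet markers 1 was higher. The 7 red cell markers were all higher on day 14, with a median sum of 31891 CPM against 2336 CPM on day 0. The part of these shifts in the clock gene changes was not tested.

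For each of the 10 clock genes, differences between steers took a larger share of the variance than differences between days. Of the variance of log2 CPM over all libraries, differences between steers took 81.6% for NPAS2, 70.9% for PER3, 65.2% for CRY2, 62.99% for PER2 and 55.4% for NR1D1, and 27.6% for PER1. These shares include differences between the 7 groups, in which treatment, pen and lane are mixed. The groups made up 25.8 of the 70.9 points for PER3, 15.7 of 55.4 for NR1D1 and 12.6 of 65.2 for CRY2. They made up 11.8 points for NPAS2, 8.27 for PER2 and 4.63 for PER1. For PER1 and CRY1 the rest, which is neither steer, day nor group by day, was larger than the share of steers (48.9% against 27.6% and 37.96% against 32.9%). Differences between days took 3.71% for NPAS2 and 17.8% for PER3. For comparison, days took 51.6% of the variance of DBP. Steer means ranged 15.1-fold for NPAS2, 4.31-fold for PER3 and 3.22-fold for PER2, and 1.66-fold for CRY1.

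NPAS2 divided the herd. In 4 steers it was high in all 6 libraries: 8.89 to 13.01 CPM in Flor7, 8.26 to 9.56 CPM in Tula4, 5.77 to 9.18 CPM in Ceft6 and 4.99 to 7.24 CPM in Ceft5. No library of the other 38 steers was above 2.81 CPM. These steers were high on day 0, before any administration, at 9.97, 8.26, 5.77 and 4.99 CPM, when the median over all steers was 0.976 CPM. Within a steer the level was steady, with a mean of 9.02 ± 0.482 CPM (SD over 6 days) in Tula4 and 10.5 ± 1.37 CPM in Flor7. The same 4 steers held the 4 highest means of NR1D1: 12.8 ± 1.54 CPM in Tula4, 12.4 ± 2.51 in Flor7, 11.3 ± 1.85 in Ceft6 and 9.75 ± 1.303 in Ceft5, where the highest mean of the other 38 steers was 8.41 CPM and their median 6.69 CPM. They also held the 4 highest means of TEF, between 34.2 and 43.2 CPM, just above the highest of the other steers at 33.99 CPM. They did not hold those of DBP or HLF. The highest steer means of DBP were 45.6 CPM in FLOR and 46.6 CPM in TULA, against 49.3 in ENRO and 50.6 in TILD. Those of HLF were 11.4 CPM in FLOR and 11.3 CPM in TULA, against 12.8 in OXYT. The order did not extend to the whole clock either. For PER2 the 4 steers ranked 1, 5, 6 and 12 of 42, for CRY2 1, 2, 7 and 15, for PER3 12, 17, 25 and 40, and for ARNTL they were among the lower steers, at 32, 35, 40 and 42. These rankings are a description of 4 steers picked for their NPAS2 level and were not tested.

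**Figure D2:**
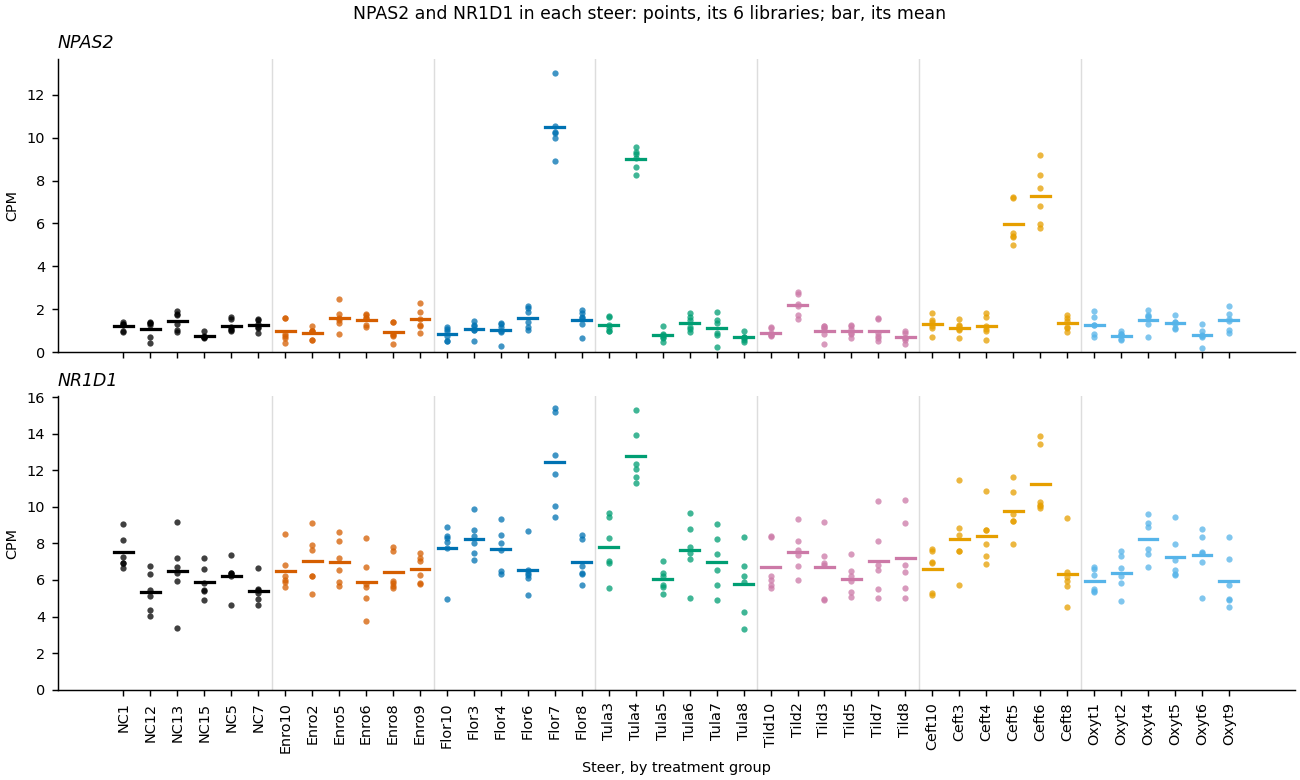
NPAS2 (top) and NR1D1 (bottom) in CPM in each of 42 steers, grouped by treatment; points are the 6 libraries of a steer and bars their mean. Flor7, Tula4, Ceft5 and Ceft6 lie at 4.99 CPM of NPAS2 or more in every library, all others at 2.81 CPM or less, and the same 4 have the highest NR1D1 means.

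The second question was whether the clock genes changed differently after an antibiotic. The change from day 0 in each treated group was compared with that in NC, which removes what differed between steers before administration. Over the 5 later days together, 1 of 60 tests passed, CRY1 in ENRO (edgeR F test, FDR 0.0487), where 8.67% of all genes passed. That was 1 of the 10 clock genes, where 14.9% of all genes passed in at least 1 treatment. On no single day did a clock gene pass with edgeR, where 8.19% of all genes passed on at least 1 day in at least 1 treatment. With limma voom 1 did, in ENRO on day 7, where 1389 of the 19056 genes tested passed at least once. In NC, CRY1 had a median of 11.5 CPM on day 0 (9.40 to 16.5), values of 10.1 to 12.3 on day 3 and a median of 9.53 on day 7 (8.18 to 10.1). In ENRO it had 9.80 CPM on day 0 (8.70 to 15.9), 9.54 on day 3 (7.52 to 10.5) and 11.4 on day 7 (10.2 to 14.6). The 2 groups did not overlap on day 7 and overlapped on the other 5 days. On day 7 CRY1 was higher than on day 0 in 4 of 6 ENRO steers and lower in 5 of 6 NC steers.

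The contrast of CRY1 changes, ENRO minus NC, was 0.45 on day 7 (SE 0.161, edgeR FDR 0.066), -0.16 on day 3 and 0.29 on day 21, and the direction thus differed between days. With limma voom the F test gave an FDR of 0.0250, which moved to 0.204 without Enro2, 0.0971 without Enro5 and 0.0667 without NC12 and stayed between 0.00897 and 0.0498 when any other steer of the 2 groups was left out. NR1D2 in ENRO had a like course, with 27.4 CPM on day 7 (24.1 to 35.4) against 19.7 CPM in NC (13.8 to 22.9), without overlap. Its FDR over the 5 days was 0.0697 by edgeR and 0.0416 by limma voom. ARNTL in ENRO had an FDR of 0.0809. The remaining single-day contrasts closest to the threshold were PER3 in OXYT on day 56 (0.63, SE 0.192, edgeR FDR 0.0719), ARNTL in TILD on day 21 (-0.36, edgeR FDR 0.0834) and NR1D2 in CEFT on day 3 (-0.63, edgeR FDR 0.0844).

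**Figure D3:**
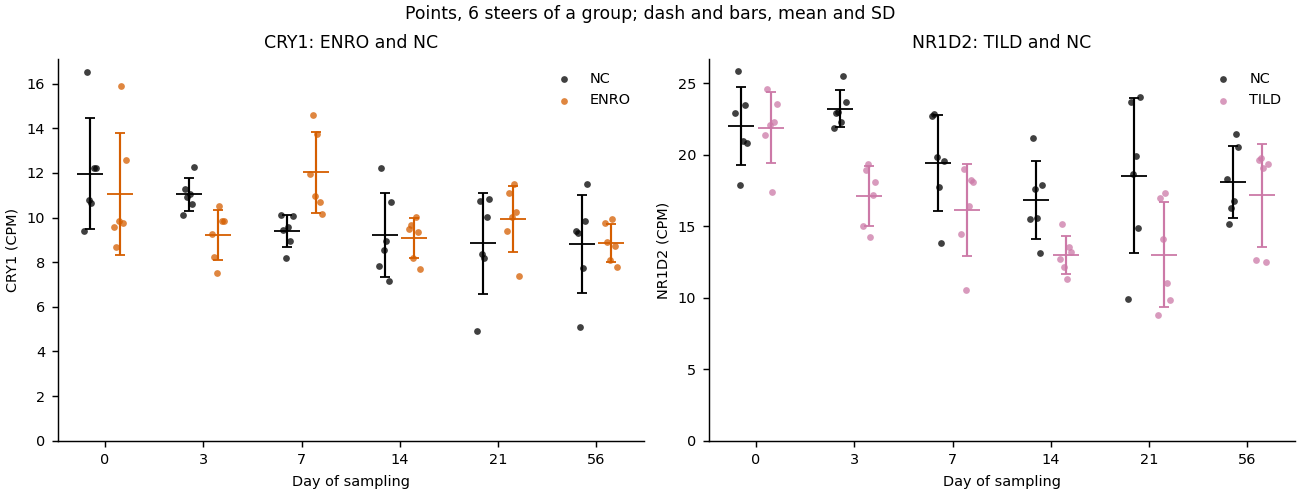
CRY1 in ENRO and NC (left) and NR1D2 in TILD and NC (right), in CPM by day; points are the 6 steers of a group, dashes and bars their mean and SD. CRY1 in ENRO lies above NC without overlap on day 7, and NR1D2 in TILD lies below NC on day 3 without overlap.

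Each treated group was also compared with NC within each day at an FDR of 0.1, by edgeR quasi-likelihood on the counts as deposited. Of 360 tests on the clock genes 1 passed, NR1D2 in TILD on day 3, where 3.14% of all genes passed. That was 1 of the 10 clock genes, where 16.7% of all genes passed in at least 1 of the 36 comparisons. DESeq2 made 16 calls in 8 clock genes, where 8494 of the 19056 genes tested passed in at least 1 comparison. ComBat_seq by lane with a likelihood ratio test, the form nearest to that of the study, made 0, where 1059 genes passed. ComBat_seq was run without a treatment term, so it also reduces differences between groups on different lanes. NR1D2 was between 14.3 and 19.3 CPM in TILD on that day (17.2 ± 2.10, SD, n = 6) and between 21.9 and 25.6 CPM in NC (23.2 ± 1.29, SD, n = 6). The groups did not overlap, and the log2 fold change was -0.44 (SE 0.0916, edgeR FDR 0.0546). On day 0 the same groups had 21.9 ± 2.49 and 22.01 ± 2.72 CPM. NR1D2 fell from day 0 in 6 of 6 TILD steers, and the change from day 0 differed from that in NC by -0.44 (SE 0.198), which did not pass (edgeR FDR 0.499). The FDR of the day test rose to between 0.101 and 0.120 when NC7, NC12, NC13, Tild5 or Tild10 was left out, and to 0.654 after ComBat_seq by lane with a likelihood ratio test, with a log2 fold change of -0.35. TILD steers were on lanes 2 and 3 and NC steers on lane 1. In the 360 comparisons 6 had no overlap between treated and NC steers, 5 higher and 1 lower, against 0.81% of the comparisons of all genes. The remaining 4 beside CRY1 and NR1D2 were NR1D2 in ENRO on day 7, PER3 in FLOR on day 21 and PER1 in FLOR on day 3 and in TULA on day 21.

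Averaged over the 6 days, 5 of 60 comparisons of a treated group with NC passed (limma voom, steer entered as random block, FDR 0.05). They fell on 3 of the 10 clock genes, where 9.01% of all genes passed in at least 1 treatment. PER3 was higher in FLOR by 0.79 (SE 0.153, limma FDR 0.000491, 1.56% of all genes) and in TILD by 0.59 (SE 0.160, limma FDR 0.0132, 4.98% of all genes). The steer means of PER3 were 14.5 to 32.9 CPM in NC, with a median of 19.3, 21.9 to 50.5 CPM in FLOR, with a median of 36.9, and 17.2 to 47.3 CPM in TILD, with a median of 31.1. The groups overlapped, since 1 NC steer, NC15 at 32.9 CPM, lay above 3 FLOR and 3 TILD steers, while 6 of 6 FLOR steers were above the NC median. The difference was present on day 0, at 25.6 ± 7.29 CPM in FLOR, 24.9 ± 12.1 CPM in TILD and 17.1 ± 7.72 CPM in NC (SD, n = 6 each). The change of PER3 from day 0 did not differ from NC past the threshold in FLOR (edgeR FDR 0.848) or TILD (edgeR FDR 0.985). PER3 in FLOR passed whichever of 24 steers was left out (limma FDR 4.64e-05 to 0.00755) and after ComBat_seq by lane. The 24 were the steers of NC, FLOR, TILD and CEFT, of which only those of NC and FLOR enter this comparison. PER3 in TILD did not pass without Tild2 (0.0787), Tild7 (0.098) or NC13 (0.052), or after ComBat_seq (0.312). TILD and NC shared no lane, and ComBat_seq by lane also reduces differences between such groups.

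**Figure D4:**
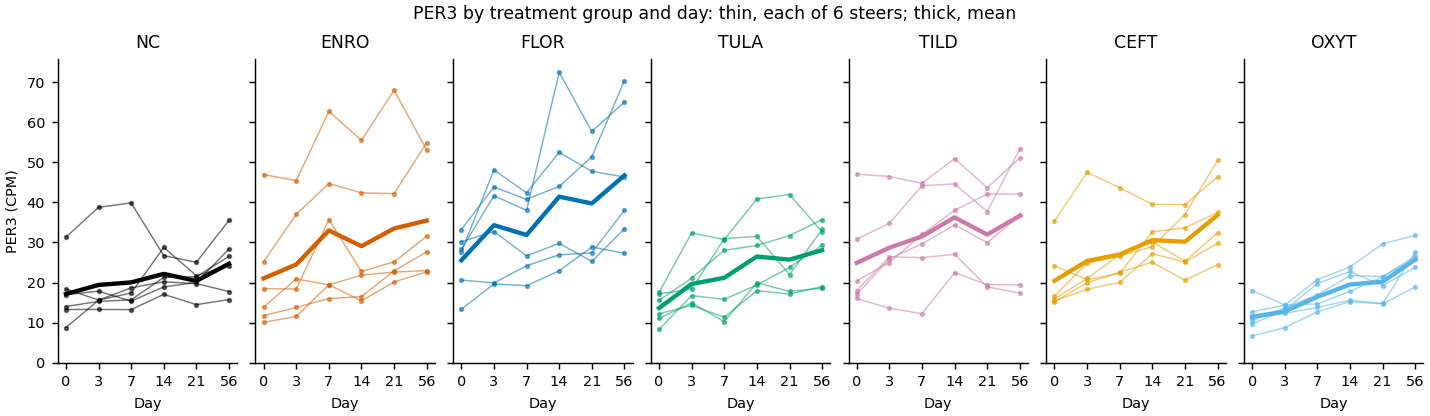
PER3 (CPM) by day in the 7 groups; thin lines are the 6 steers of a group and the thick line is their mean. The level rises over the days in every group, and the means of FLOR and TILD are above NC on day 0.

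The other 3 calls fell on the genes that are high in the NPAS2-high steers. NPAS2 was higher in CEFT by 0.99 (SE 0.293, limma FDR 0.0347, 3.42% of all genes), where the steer means were 5.95 CPM in Ceft5, 7.27 CPM in Ceft6 and between 1.13 and 1.35 CPM in the other 4, and in NC were 0.756 to 1.47 CPM. Without Ceft5 it did not pass (0.69, limma FDR 0.195), nor without Ceft6 (0.63, limma FDR 0.224), NC7, NC12 or NC15, and without all 4 NPAS2-high steers the difference was 0.16 (limma FDR 0.815). NR1D1 was higher in CEFT by 0.42 (SE 0.118, limma FDR 0.0239) and in FLOR by 0.40 (SE 0.116, limma FDR 0.0466). Without the 4 steers these were 0.24 (limma FDR 0.254) and 0.27 (limma FDR 0.260). NR1D1 in CEFT also did not pass without Ceft3, Ceft4, Ceft5, Ceft6, NC7 or NC12, each alone, and in FLOR without Flor7 it stood at 0.27 (limma FDR 0.328). After ComBat_seq by lane none of the 3 passed: NPAS2 in CEFT stood at 0.60 and NR1D1 in CEFT at 0.26 (limma FDR 0.99997 for both), and NR1D1 in FLOR at 0.29 (limma FDR 0.438). All CEFT steers were on lane 3 and all NC steers on lane 1, so this adjustment also reduces any difference between these groups. It cannot tell lane from treatment.

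The third comparison followed the order in which the groups were handled, since clock genes vary with the hour. The change from day 0, averaged over later days, was set against the place of the group from 1 to 7. No clock gene had a slope past the threshold, and 0 of all genes passed (0% by edgeR; 2 by limma voom), with 2274 at an unadjusted p under 0.05. PER1 was the closest, with a slope of -0.05 log2 per place (SE 0.0265, unadjusted p 0.048, edgeR FDR 0.415). On day 3 alone its slope was -0.11 (edgeR FDR 0.327) and on day 7 -0.09 (edgeR FDR 0.187), and on days 21 and 56 it was -0.00056 and -0.02. Over the 7 group means the exact permutation test of PER1 gave r = -0.67 (two-sided p = 0.102, FDR 0.687 over all genes) and rho = -0.71 (exact permutation p = 0.0881). The group means of the PER1 change were 0.23 in NC, 0.12 in ENRO, 0.19 in FLOR, 0.31 in TULA, 0.08 in TILD, -0.07 in CEFT and 0.02 in OXYT on the log2 scale, with SDs between 0.392 and 0.608 over 6 steers. Without NC and OXYT, the ends of the order, r was -0.56. For other genes r without these 2 groups was also far from that over all 7. It was -0.95 against -0.48 for NR1D2, -0.84 against -0.11 for ARNTL, -0.84 against -0.45 for CLOCK and -0.85 against 0.25 for CRY1. In logs formed with a prior count of 0.5, it was -0.26 against 0.45 for PER3 and -0.31 against 0.27 for NPAS2. There NR1D1 moved least, at -0.37 against -0.32. These values rest on 5 groups and were not tested. Without OXYT alone the NR1D2 slope was -0.08 (SE 0.0260, edgeR FDR 0.0645), against -0.03 with all groups. For PER1, the slopes within the 3 lanes were -0.26, -0.28 and -0.33 (limma FDR 0.526, 0.9999 and 0.533), where each lane holds steers of 3 groups.

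The last comparison asked how the clock genes moved together. Each log2 CPM value was taken as its deviation from the mean of its group and day, so that treatment and day were removed, and the deviations were correlated over all libraries for 45 pairs. Libraries of a steer share its blood, lane and genotype. The p-values come from 100000 shuffles of whole steers within groups and were adjusted over the 45 pairs, and beside each r that passed is given its place among the correlations of the same genes with 19046 others. No value over all steers is given for pairs with NPAS2, since its 4 high steers form a cluster.

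ARNTL and CRY1 moved together (r = 0.56 and rho = 0.54, each with permutation p = 1e-05, the smallest that the shuffles can give, and adjusted p = 0.000112), above 99.7% of the correlations of either gene. The correlation was 0.52 to 0.59 within lanes, 0.49 to 0.67 within days, positive in 7 of 7 groups and 0.49 with steer means removed. ARNTL and NR1D1, which represses ARNTL, moved in opposite directions (r = -0.42, permutation p = 0.00012, adjusted p = 0.000771, and rho = -0.40, adjusted permutation p = 0.000225), below all but 1.94% of the correlations of ARNTL and 0.152% of those of NR1D1. They were negative within the 3 lanes (-0.26, -0.47 and -0.48) and in 7 of 7 groups, -0.31 without the 4 NPAS2-high steers and -0.26 with steer means removed. CRY1 and NR1D1 also ran opposite (r = -0.35, rho = -0.30, permutation p = 7e-05, adjusted p = 0.000525), below all but 1.04% of the correlations of NR1D1 and 3.67% of those of CRY1, and PER1 ran with NR1D1 (r = 0.33, rho = 0.43, permutation p = 2e-05, adjusted p = 0.00018), above 96.6% of the correlations of PER1 and 97.8% of those of NR1D1. CRY2 and NR1D1 ran together (r = 0.40, rho = 0.36, permutation p = 0.00079, adjusted p = 0.00323), but without the 4 NPAS2-high steers r was 0.21 (adjusted permutation p = 0.105). With all steers it lay above 99.4% of the correlations of CRY2 and 99.3% of those of NR1D1.

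CLOCK and NR1D2 had the highest r of the pairs without NPAS2 (r = 0.62, rho = 0.57, permutation p = 1e-05, adjusted p = 0.000112). It lay above 95.6% of the correlations of CLOCK and 96.9% of those of NR1D2, genes that correlate widely, since the genes most like them reached 0.86 and 0.80. CRY1 and NR1D2 had r = 0.40 (adjusted permutation p = 0.000112), above 96.1% of the correlations of CRY1 and 89.9% of those of NR1D2. ARNTL and NR1D2 had r = 0.26 (adjusted permutation p = 0.0298), above 91.3% of the correlations of ARNTL and 82.5% of those of NR1D2. CLOCK and PER1 ran opposite (r = -0.32, rho = -0.33, permutation p = 1e-05, adjusted p = 0.000112), but 11.99% of the correlations of CLOCK and 4.03% of those of PER1 were lower still. ARNTL and CLOCK, whose proteins bind each other, had r = 0.05 (permutation p = 0.670), and 0.34 with steer means removed (permutation p = 0.00012). NR1D1 and NR1D2 had r = 0.02 (permutation p = 0.901), and -0.19 with steer means removed. Leaving out the 2 libraries with the most extreme deviation of the first gene gave 0.52 for ARNTL and CRY1, -0.38 for ARNTL and NR1D1 and 0.59 for CLOCK and NR1D2.

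With steer means removed, what is left is how a steer departs from its own level on a day, and 2 sets ran through the 10 genes. ARNTL, CLOCK, CRY1 and NR1D2 correlated positively with each other in all 6 pairs, between 0.34 and 0.59. NR1D1 and CRY2 correlated with each other at 0.47 and negatively with these 4 in all 8 pairs, from -0.19 to -0.47. PER2 and PER3 had r = 0.42, and PER3 and NPAS2 r = 0.33. The first 4 genes are those that were lower on day 56, and the day means had been removed before the correlation. The sets were named after the values were seen, and these r were not placed among the correlations with other genes. Whether such sets are particular to the clock genes was not tested. Among the 38 other steers NPAS2 and PER2 had r = 0.41 (permutation p adjusted over 45 pairs 0.000771), and NPAS2 and NR1D1 r = 0.08 (adjusted 0.522).

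**Figure D5:**
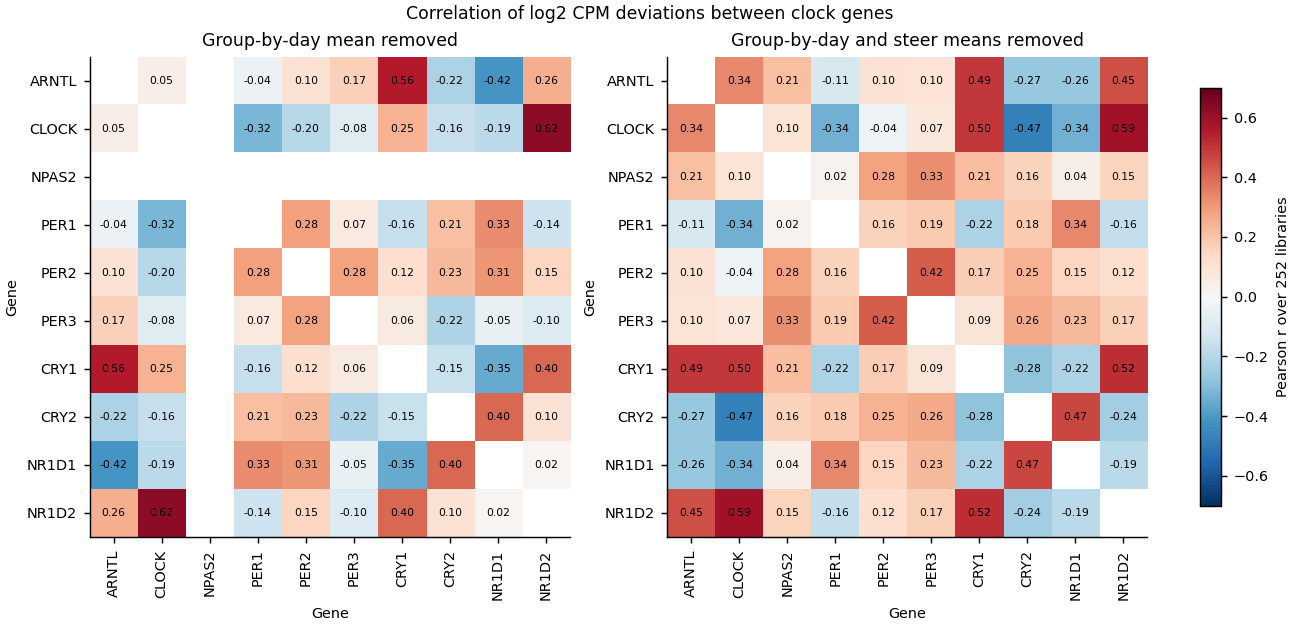
Pearson correlations of log2 CPM deviations between pairs of clock genes over the libraries of 42 steers, with the group-by-day mean removed (left, NPAS2 left out) and with steer means removed as well (right). On the right ARNTL, CLOCK, CRY1 and NR1D2 are positive among themselves and negative with CRY2 and NR1D1.

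The marker sums of cell types moved with some of these genes in the same deviations. ARNTL correlated with the sums of natural killer and cytotoxic markers at 0.52, T cell markers at 0.41 and B cell markers at -0.61, and CRY1 with B cell markers at -0.49. CLOCK and NR1D2 correlated with T cell markers at -0.55 and -0.22. PER2 correlated with T cell markers at 0.40, NR1D1 with B cell markers at 0.33, and NR1D2 with B cell markers at -0.33. With the glucocorticoid-response sum ARNTL correlated at 0.37 and PER1 at 0.28. For NPAS2 and CRY2 all correlations with the marker sums lay between -0.23 and 0.21. The part of cell composition in the correlations between clock genes was not tested.

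Of all genes outside the set, the most like each clock gene were found by the same r. TEF, the D-box factor, came first for NR1D1 (0.64), CRY2 (0.60) and NPAS2 (0.53, a value that includes the 4 high steers). THRA, a thyroid hormone receptor, came second for NR1D1 (0.59). THRA and NR1D1 overlap on opposite strands of the chromosome, and since the reads were mapped and counted at default settings, which take no library strand, their reads cannot be surely told apart. ARNTL was most like GFI1 (0.75), a transcriptional repressor of blood cells, and TXK (0.71), a kinase of T and natural killer cells. CLOCK was most like FAR1 (0.86) and SLC30A9 (0.85), NR1D2 like C25H16orf72 (0.80) and TAB3 (0.79), CRY1 like WWP1 (0.64) and ZMYND11 (0.64), PER1 like ZSWIM8 (0.58) and NUMA1 (0.58), PER2 like ZNF512B (0.57) and PDK2 (0.56), PER3 like LOC112441840 (0.70) and L1CAM (0.68), CRY2 next like CSRP1 (0.57) and NPAS2 next like MUM1 (0.45).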

How the data were processed

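The deposited table holds estimated counts per gene for 252 libraries. Per the study's methods, the authors trimmed stranded reads (Trimmomatic 0.39), mapped them to ARS-UCD1.3 by HISAT2 and made the counts with StringTie v2.2.0 and its counting script. The annotation release is not given in the sources used here. The values are whole numbers, neither normalized nor adjusted for lane.

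From these, genes with over 0.2 CPM in at least 12 libraries were kept (19056 of 33282) and scaled by TMM. edgeR 4.0.16 (quasi-likelihood) tested days and changes from day 0 with steer as a block, and each treatment against NC within a day. limma 3.58.1 (voom, with steer as a random block at a correlation of 0.359) tested treatment means. DESeq2 1.42.0 and ComBat_seq (sva 3.50.0) served as alternatives. FDR is Benjamini-Hochberg over all genes tested. For correlations, run in Python 3.11.15, log2 CPM was formed after adding a prior count of 2. The scripts were tested on simulated data. A mixed model of the study, glmmSeq, was not used here.

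Replicates are separate steers. The labels tie a steer's 6 libraries together: with group and day means removed, libraries of a steer correlated at a median of 0.342 and those of different steers of a group at -0.082, and 42 of 42 steers were over 0.1. The 10 genes are named in full, with up to 10 further clock genes by smallest p from a list of 20 and the 2 genes most like each member; HLF, RORA, KLF9, FKBP5 and CEBPD were named after their values were seen. Some genes of that list are not reported here. The members and lists were chosen with earlier results of these data known. Alternatives were other size factors, no filter, other tools, no steer block, lanes, and steers or groups left out. Leaving out steers, hemoglobin-rich libraries and single lanes for the day effect were chosen after seeing the data.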

Additional observations from a re-analysis of the deposited data

Results flagged for a closer look

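In 5 of 70 sets of 6 steers (10 genes in 7 groups, mean over days), 1 steer stood apart from the rest of its group by Dixon's criterion on mean log2 CPM, where chance alone would give about 1 in 20, or 3.5. Of these, 3 were NPAS2, at a mean of 10.5 CPM in Flor7, 9.02 CPM in Tula4 and 2.198 CPM in Tild2. PER2 was 4.04 CPM in Tula4, and CRY1 was 11.5 CPM in Oxyt9. Ceft5 and Ceft6 are not among them because 2 high steers in 1 group hide each other. The change of CRY1 from day 0 differed between ENRO and NC over the 5 later days (edgeR FDR 0.0487).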

How the results depend on the processing

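For the day effect, the direction on day 56 was the same for all 10 genes under every alternative run, and the genes past the threshold fell from 15313 to 9682 in lane 1 alone, which has fewer libraries. For changes from day 0 against NC, the calls of clock genes went from 1 to 0 without the filter (2055 genes) and 2 with limma voom (2503 genes). They went to 0 without the replicate block, where 393 genes passed in place of 2833. Group effects of clock genes went from 5 to 8 without the filter (8214 genes in place of 1716), to 1 after ComBat_seq (129 genes) and to 2 without the 4 steers high in NPAS2 (1571 genes). ComBat_seq by lane had no treatment term and also reduces differences between groups on different lanes. With 1 steer left out they ranged from 2 (without NC7 or NC12) to 7, and the genes from 1049 to 2315. Genes with an order trend went from 0 to 9 with DESeq2 size factors, 3 without the filter, 2 with limma voom, 2 within each lane, 1 without FLOR and 313 without OXYT, and on single days were 1 (day 3), 4 (day 7), 306 (day 14) and 57 (day 56). No clock gene was among them. Day test calls of clock genes went from 1 to 16 with DESeq2 and 0 with ComBat_seq and a likelihood ratio test, and genes from 3186 to 1837 (no filter), 8494 (DESeq2) and 1059 (ComBat_seq). With the steer mean removed, as the replicate block of the correlations, pairs at an unadjusted permutation p under 0.05 went from 20 to 35. Except where stated, the cause of these shifts was not tested. PER2 and NPAS2 had too few counts to settle small changes in single libraries. With 6 sequenced steers from 1 pen per group, pen and treatment cannot be told apart.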
